A study of Homo sapiens with 6 samples.

Results

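The HES and HEY genes encode basic helix-loop-helix repressors through which the Notch pathway acts on the nucleus. The 9 members described here are HES1, HES2, HES4, HES5, HES6, HES7, HEY1, HEY2 and HEYL. They were taken by gene symbol from the 57123 genes of the count tables, and 4 of them, HES2, HES4, HES5 and HEYL, lie on the short arm of chromosome 1 (1p) while 5 lie on other chromosomes. The family was selected on its WT and MUL1(−/−) CPM values in these same samples, so the difference between the genotypes is described for the members without a test.

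The samples were mRNA sequencing libraries of HEK293, an established human embryonic kidney line. WT cells were compared with MUL1(−/−) cells, in which MUL1, a mitochondrial E3 ubiquitin ligase, was inactivated with CRISPR-Cas9, with 3 libraries per genotype. Both genotypes were grown in DMEM with fetal calf serum, glutamine, penicillin and streptomycin, and neither received a drug. The sources used here do not say whether the 3 libraries of a genotype came from separate cultures, or from 1 clone or several. The p-values below therefore measure the spread between these libraries, which may be technical, and a difference between clones cannot be told apart from the genotype.

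In Notch signalling a ligand on one cell binds a NOTCH receptor on its neighbour, the receptor is cut by ADAM proteases and then by gamma-secretase, and the freed intracellular domain joins the DNA-binding protein RBPJ and a Mastermind coactivator at target promoters. HES and HEY genes are among the best known of those targets. HES proteins recruit corepressors of the TLE family and keep proneural genes and other differentiation genes low. HES6 is the exception in the family, since it is known for opposing HES1 and for promoting neuronal differentiation.

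The element that RBPJ binds has the core TGGGAA, so the start of each member was read for it. Promoter windows of 250 bases before to 50 bases after the start were taken from RefSeq (GRCh38.p14) for 8 of the 9 members, and none was used for HEY1. The core, on either strand, was present in 5 of the 8 windows (HES1, HES4, HES5, HEY2 and HEYL) and in 24% of all 35116 promoter windows. The following stretches of 30 bases are shown because they hold the core nearest to each start, with the core in capitals and the letters read 5′ to 3′ on the strand of the gene.
HES1 (chr3:194136058-194136087, plus strand): ttactgTGGGAAagaaagttTGGGAAgttt
HES4 (chr1:1000150-1000179, minus strand): cgagtgTGGGAAagaatgcggagccgggtt
HES5 (chr1:2530320-2530349, minus strand): ggagtgTGGGAAcggccgcggcgcccggac
HEY2 (chr6:125749623-125749652, plus strand): gcggcgTGGGAAagagccgctaggagcaga
HEYL (chr1:39639719-39639748, minus strand): gggcccTGGGAAagggcggtggcggcgccc

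HES1 holds 2 cores in 1 stretch, with first bases at -84 and -70 from the start. The single core of HES4 begins at -76, that of HES5 nearest the start at -80 and that of HEYL at -99, while the core of HEY2 spans the start itself. The longer word GTGGGAA, which contains the core and the G before it and was searched after the core had been seen, was present in the same 5 windows and in 6.25% of all promoter windows. In HEYL it lies at -178 to -172 on the opposite strand, outside the stretch shown, where a C comes before the core. HES2, HES6 and HES7 had no TGGGAA in this window. The N-box CACNAG, to which HES proteins bind, was present in 3 members (HES1, HES2 and HES7) and in 38% of all windows. The E-box CANNTG was present in 3 members (HES2, HES5 and HES6) and in 68.7% of all windows. These matches describe letters only, and binding was not measured.

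The libraries held between 127015142 and 142803296 counts summed over exon bins in WT cells and between 121917971 and 122441959 in MUL1(−/−) cells. Of the 25125 genes that passed the filter on low counts, 1064 were higher and 973 lower in MUL1(−/−) cells past both limits used here, which are an adjusted p under 0.05 and a log2 fold change of more than 1 in size (edgeR quasi-likelihood test with Benjamini-Hochberg adjustment). MUL1 itself had 16.6 ± 2.15 CPM (counts scaled to library size by TMM) in WT cells and 18.2 ± 1.35 in the libraries labelled MUL1(−/−) (SD, n = 3 each), and its log2 fold change of 0.14 did not pass (edgeR adjusted p = 0.321). The edited site of this line was not given in the sources used here, so this gene could not be used to check the labels. All 8 HEK293 markers were tested, 4 of them lower and 2 higher in MUL1(−/−) cells at an adjusted p under 0.05 in edgeR's test. Of all genes tested 18.7% were lower and 18.8% higher by that measure. The 4 lower markers were PAX2 at -1.80, KRT8 at -0.93, LHX1 at -0.55 and VIM at -0.34 on the log2 scale. The 2 higher ones were NEFM at 1.06 and CDH2 at 0.19. The summed level of the 8 markers was 1355 to 1578 CPM in WT and 996 to 1173 CPM in MUL1(−/−) cells. Of the 6 tested markers of blood, endothelium, fibroblasts and hepatocytes 4 were higher and 1 was lower in MUL1(−/−) cells at an adjusted p under 0.05. The 4 higher ones passed both limits (background 4.23%), with log2 fold changes of 2.06 for PECAM1, 1.94 for PTPRC, 1.37 for COL3A1 and 1.30 for DCN. PECAM1 and PTPRC were at 0.223 and 0.365 CPM in MUL1(−/−) cells, COL3A1 at 13.3 and DCN at 2.92. The lower one was the collagen gene COL1A1 (log2 fold change -0.39). The summed level over the 9 genes of that list was 25.5 to 32.6 CPM in WT and 29.9 to 38.8 in MUL1(−/−) cells. CD3E was at 0 in 4 of the 6 libraries and at 1 count in the others. The part of these markers in the results on the members was not tested. In a bulk culture, fewer cells that express a gene and less RNA per cell cannot be told apart.

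HES4 had the highest level of the family per length, and it was lower in each MUL1(−/−) library than in any WT library. HES4 is a repressor similar to HES1 and is known as a direct Notch target. Its level was 295.6, 246.6 and 217.4 CPM in the WT libraries and 117.2, 121.2 and 137.3 CPM in the MUL1(−/−) libraries. With means of 253 ± 39.5 in WT and 125 ± 10.7 CPM in MUL1(−/−) cells (SD, n = 3 each), MUL1(−/−) cells held 49.5% of the WT level. The log2 fold change was -1.02 with a standard error (SE) of 0.10, on the limit of 1 set for a call, and it ran from -1.12 to -0.89 over 15 alternative ways of processing, 9 of which kept it past the limit.

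HES2, a HES repressor expressed here at a low level, had the largest fold change of the family. It was counted at 2.10, 2.13 and 1.80 CPM in WT cells and at 0.538, 0.663 and 0.347 CPM in MUL1(−/−) cells. These values rest on 267, 301 and 227 counts in WT and 68, 83 and 43 counts in MUL1(−/−) libraries. The genotypes did not overlap. MUL1(−/−) cells held 25.7% of the WT mean, and the log2 fold change was -1.96 (SE 0.20), between -2.17 and -1.74 in all 15 alternatives.

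HEYL, the third member of the HEY family, behaved unlike HES2 and HES4 although it lies on the same arm. Its level was 5.67, 5.76 and 5.27 CPM in WT and 5.70, 5.83 and 5.46 CPM in MUL1(−/−) cells, and the genotypes overlapped. The log2 fold change was 0.03 (SE 0.10), and over the alternatives it stayed between -0.02 and 0.10, the latter when libraries were scaled by their totals. HES5, the Notch target used most often as a readout in neural progenitors, was not detectable at this depth. It had 1 count in WT replicate 2, 1 count in MUL1(−/−) replicate 3 and 0 in the other 4 libraries, under a floor of 3 counts that corresponds to 0.0212 to 0.0242 CPM, so no fold is given. HES3, which lies on 1p as well but is not among the members, had 4, 5 and 0 counts in WT and 2, 1 and 0 counts in MUL1(−/−) libraries and did not enter the fit.

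Among the members on other chromosomes, HES6 and HEY1 were lower in MUL1(−/−) cells in every library. HES6 had 67.2, 59.6 and 59.1 CPM in WT and 38.8, 41.6 and 34.7 CPM in MUL1(−/−) cells. Its log2 fold change was -0.69 (SE 0.08), between -0.74 and -0.62 over the alternatives, and MUL1(−/−) cells held 61.9% of the WT mean. HEY1, a Notch target known from the vessel wall and the heart, had 22.5, 22.2 and 21.4 CPM in WT and 12.8, 13.9 and 18.3 CPM in MUL1(−/−) cells. The third MUL1(−/−) library stood nearer to WT than the other two. The log2 fold change of HEY1 was -0.55 (SE 0.11) with all libraries and -0.72 without MUL1(−/−) replicate 3.

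HES1, the founding mammalian Notch target and an oscillating repressor, overlapped between the genotypes. It had 50.0, 44.4 and 36.8 CPM in WT and 36.1, 36.6 and 42.9 CPM in MUL1(−/−) cells, a log2 fold change of -0.18 (SE 0.10). That value was -0.08 without WT replicate 1, -0.30 without WT replicate 3 and -0.06 on the most counted bin. HES7, which drives the segmentation clock together with other cyclic genes in the embryo, had 12.3, 11.8 and 9.08 CPM in WT and 10.9, 13.2 and 5.52 CPM in MUL1(−/−) cells. The lowest value of HES7 was that of MUL1(−/−) replicate 3, and its log2 fold change of -0.16 (SE 0.22) turned to 0.12 without that library. HEY2, a transcriptional repressor that acts in arterial and cardiac development, had 6.98, 6.14 and 6.83 CPM in WT and 6.78, 6.78 and 6.004 CPM in MUL1(−/−) cells, with a log2 fold change of -0.03 (SE 0.11).

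Of the 9 members, 8 passed the filter on low counts, and no member passed it in 1 genotype alone. The genotypes did not overlap for 4 of the 8, all lower in MUL1(−/−) cells, where 48.5% of all genes tested did not overlap and 24.4% did so in that direction. Past both limits, 2 members were lower (background 3.87%) and 0 were higher (background 4.23%), against 8.11% of all genes in either direction. At an adjusted p under 0.05 alone 4 were lower (background 18.7%) and 0 higher (background 18.8%). Since the family was chosen by this contrast, nothing is read from these counts. The median log2 fold change was -0.37 over the 8 members, -1.02 over the 3 tested on 1p, -0.18 over the 5 elsewhere and -0.01 over all genes tested. The 1p members thus held both the 2 lowest log2 fold changes and, in HEYL, the value closest to no change together with HEY2.

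Levels can be set against each other between genes only per length, here as CPM per kilobase of exon bins. In WT cells the order was HES4 (227 ± 35.3 CPM per kilobase), HES6 (30.4 ± 2.25), HES1 (21.2 ± 3.204), HEY1 (6.82 ± 0.179), HES7 (5.92 ± 0.930), HEY2 (2.43 ± 0.164), HEYL (1.52 ± 0.0705), HES2 (0.372 ± 0.0335) and HES5. No 2 neighbours in that order overlapped over the WT libraries, although HEY1 and HES7 came close, at 6.62 to 6.97 against 4.86 to 6.60. In MUL1(−/−) cells HES4 remained at the top with 112 ± 9.52 CPM per kilobase. There HES6 (18.8 ± 1.72) and HES1 (18.7 ± 1.84) overlapped, as did HES7 (5.29 ± 2.11) and HEY1 (4.64 ± 0.905), whose means were in the opposite order from WT. Measured on the most counted bin of each gene alone, HES7 stood above HEY1 in WT cells too. The deposited bins can be as short as 1 base, and such a bin in HEY1 held 99 to 148 counts in WT libraries, so a gene cut into many short bins may be counted more often per kilobase than a gene in few.

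The deposited bins allowed the difference to be followed along those members with enough counts per bin. HES4 was covered by 12 bins and all 12 were lower in MUL1(−/−) cells, 11 of them without overlap, at log2 fold changes from -1.34 to -0.25. Its longest bin, of 463 bases at the 3′ end, held 24.5% ± 0.773 of its counts in WT and 25.2% ± 0.845 in MUL1(−/−) cells (SD, n = 3 each). One bin of HES4 (chr1:999614-999691) lies outside all coding transcripts, in an intron kept by a retained-intron transcript of GENCODE 29. It held 6.62% ± 0.119 of the HES4 counts in WT and 5.36% ± 0.448 in MUL1(−/−) cells, a difference described here without a test. For HES6, the 19 bins with at least 20 counts were all lower and 18 did not overlap. For HEY1 it was 11 of 11 bins lower and 9 without overlap. HES1 had 6 such bins, 4 of them lower and 0 without overlap, and HES7 had 8, with 6 lower and 0 without overlap. HEY2 and HEYL had 5 each, of which 3 and 2 were lower and 0 did not overlap. HES2 had 0 bins with that many counts. The bins of a gene are not independent, since a read that spans several may be counted in each. The members were chosen by this contrast and the share over the bins of all genes was not determined, so nothing is read from these bin counts. No count of a member fell in a bin that another annotated gene touches, so the counts of the members do not depend on how overlapping genes were resolved.

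The genes beside each member were examined next, because the regions in which the members sit differed in their median fold change. The median log2 fold change of the 20 nearest tested genes, 10 on each side with members left out, was -0.66 around HES4, -0.67 around HES5 and -0.71 around HES2, but 0.02 around HEYL. Around HES4 15 of the 20 neighbours were lower at an adjusted p under 0.05 and 0 were higher, and around HES2 17 were lower and 0 higher (background 18.7% lower). Around HES5 9 were lower and 0 higher. Around HEYL 6 were lower and 2 higher.

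The region of low values on 1p ended before HEYL. Over the first 10 Mb of the arm, which hold HES4, HES5 and HES2, the median of 197 tested genes was -0.63, and 22.3% of them were called lower against 3.87% of all genes. It was -0.50 between 10 and 20 Mb and -0.57 between 20 and 30 Mb, where MUL1 lies. Between 30 and 40 Mb, which holds HEYL, the median was 0.00 and 2.3% were called lower. Over the whole arm the median of 1377 genes was -0.16. The neighbourhood of MUL1 had a median of -0.54, while MUL1 itself was at 0.14.

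By the smallest p, the neighbours of HES2 were led by RPL22, a protein of the large ribosomal subunit, which was at 1005 ± 27.8 CPM in WT and 358 ± 22.6 in MUL1(−/−) cells (SD, n = 3 each; log2 fold change -1.49, edgeR adjusted p = 4.43e-10), and by GPR153, an orphan receptor, at -2.06 (adjusted p = 1.34e-09). HES2, at -1.96, lay between these 2 genes. The neighbours of HES4 were led by KLHL17 at -1.07 (adjusted p = 2.93e-07) and the gene ENSG00000230699 at -1.63 (adjusted p = 2.04e-06), with HES4 itself at -1.02. Beside HES5, PRXL2B was at -1.62 (edgeR adjusted p = 1.34e-09) and the peptidase gene MMEL1 at -1.60 (adjusted p = 2.42e-07). Beside HEYL, NT5C1A, a cytosolic nucleotidase, was at -1.07 (edgeR adjusted p = 0.000195) and PABPC4, a poly(A)-binding protein, at -0.38 (adjusted p = 0.000743), with HEYL itself at 0.03.

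The regions around the other members went in different directions. The median of the 20 neighbours was 0.45 around HES1 and 0.51 around HES7, with 13 of 20 higher at an adjusted p under 0.05 and 0 lower in both windows (background 18.8% higher). It was -0.03 around HES6, -0.07 around HEY1 and -0.11 around HEY2. HES1, HES6, HES7 and HEY1 were each below 19 of their 20 neighbours and HES2 was below or level with 18 of them, while HES4 was below 14 and HEY2 and HEYL below 9. Without MUL1(−/−) replicate 3, the number of members below at least 18 neighbours was again 5 of 8, and the number below at least 19 went from 4 to 3, as HES7 was then below 18. The share of all tested genes that lie as far below their own neighbours was not determined. The family was also chosen by this contrast, so nothing is read from these counts.

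Less the median of its neighbours, the log2 difference was -1.25 for HES2, -0.35 for HES4 and 0.00 for HEYL on 1p. It was -0.64 for HES1, -0.67 for HES7, -0.66 for HES6, -0.48 for HEY1 and 0.08 for HEY2. Without MUL1(−/−) replicate 3 the value of HES7 was -0.37 and that of HES4 -0.45. On this scale HES4 moved from the second lowest value to one above HES1, HES6, HES7 and HEY1, although below HES7 without MUL1(−/−) replicate 3, and HES2 kept the lowest in both cases. The genotypes overlapped for HES1 and HES7, with a wide spread for HES7, while the genes beside them were mostly higher in MUL1(−/−) cells. The copy number of these regions was not measured, and its part in these values was not tested.

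**Figure D1:**
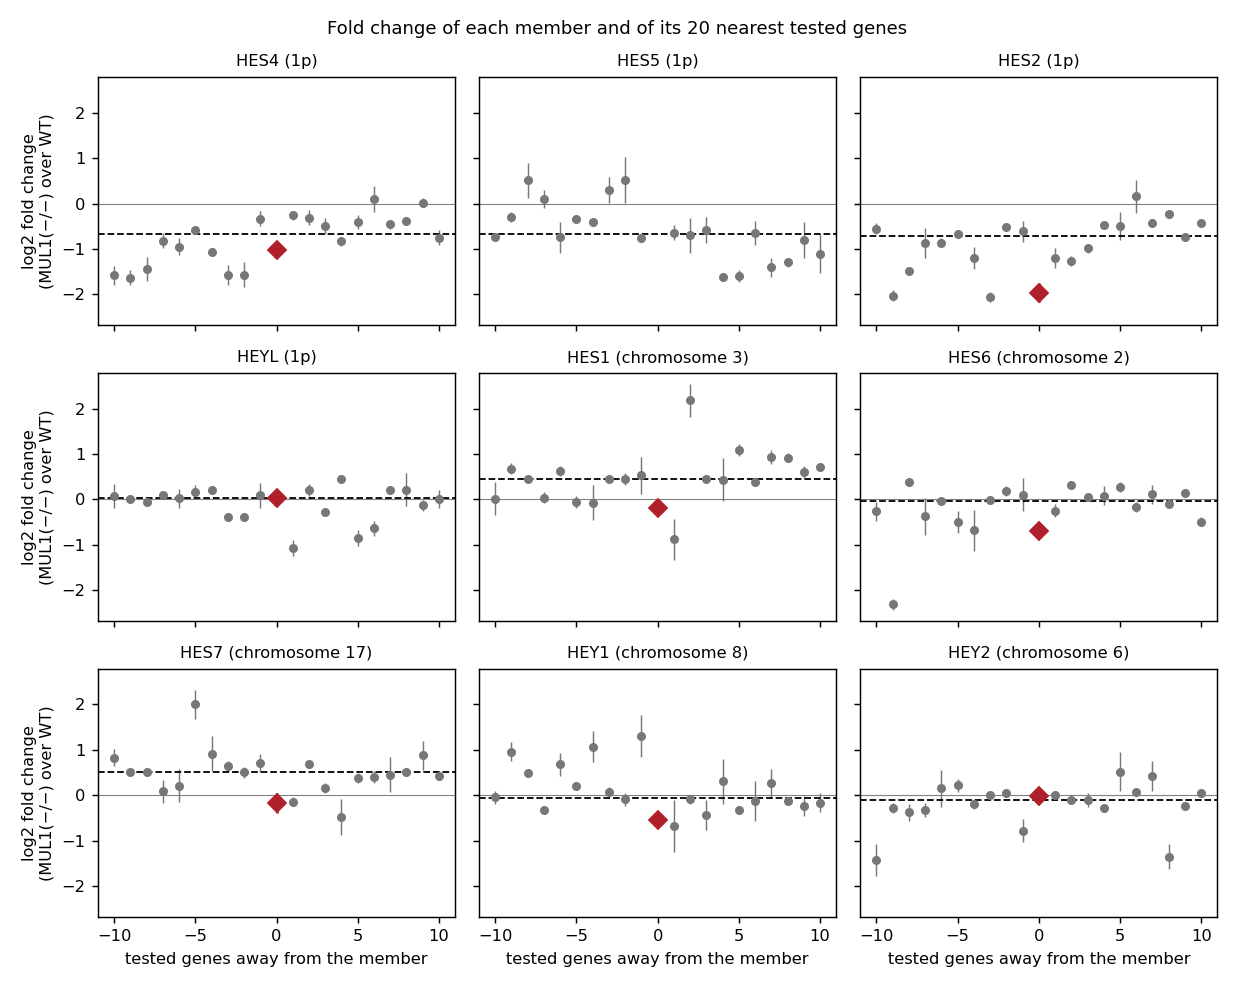
Log2 fold change (MUL1(−/−) over WT) with SE of each member (diamond at position 0) and of the 10 nearest tested genes on each side (grey points), counted in genes; the dashed line is the median of the neighbours. Neighbours lie mostly below 0 around HES4, HES5 and HES2, mostly above 0 around HES1 and HES7, and on both sides of 0 around HEYL, HES6, HEY1 and HEY2; HES5 has no diamond.

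Upstream of the HES and HEY genes, the ligand and receptor with the largest changes both fell. The Notch pathway was examined with 101 genes other than the members, of which 92 were tested. Of those, 8 were lower (8.7%, background 3.87%) and 2 higher (2.17%, background 4.23%) past both limits, and their median log2 fold change was -0.08 against -0.01 for all genes. The list of ID and E proteins, with 7 genes tested, held 3 of these 8 lower and 1 of these 2 higher genes. The share without that list was not determined. At an adjusted p under 0.05 alone 26 of the 92 were lower (background 18.7%), 19 were higher (background 18.8%) and 47 did not pass. The same background applies to the counts of each list below. Of those lower, ID3, SPEN, KDM1A and MIB2 lie between 0 and 30 Mb of 1p, where the 10 Mb medians were -0.63 to -0.50. The part of that region in their values was not tested.

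Of 6 ligands tested, 3 fell, 1 rose and 2 did not pass. JAG2, a ligand of the Serrate type, had 183.6, 171.2 and 152.5 CPM in WT and 89.0, 85.4 and 63.1 CPM in MUL1(−/−) cells, a log2 fold change of -1.10 (SE 0.11, edgeR adjusted p = 2.3e-06), and it missed the limit of 1 at -0.96 without MUL1(−/−) replicate 3. Some of its bins carry an identifier joined with another gene and were assigned by position. JAG1, the related ligand, fell by 0.24 on the log2 scale (edgeR adjusted p = 0.0259), and DLL3, a ligand-like inhibitor of Notch, fell by 0.28 (adjusted p = 0.0352). The noncanonical ligand DLK2 rose by 0.56 on the log2 scale (edgeR adjusted p = 0.000882), with 34% of its counts in bins that another gene touches. DLL1 (log2 fold change -0.15) and DLL4 (-0.04) did not pass, and both were lowest in MUL1(−/−) replicate 3, at 5.04 and 1.14 CPM against 8.01 to 8.73 and 2.44 to 2.80 in the other MUL1(−/−) libraries. DLK1 did not pass the filter on low counts.

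Among the 4 receptors 1 fell, 1 rose and 2 did not pass. NOTCH3, itself a Notch target, had 71.6, 68.0 and 64.4 CPM in WT and 29.7, 29.8 and 24.1 CPM in MUL1(−/−) cells (log2 fold change -1.29, SE 0.09, edgeR adjusted p = 5.47e-08), with no overlap. NOTCH2 rose from 101 ± 6.68 to 135 ± 5.26 CPM (log2 fold change 0.43, SE 0.07, edgeR adjusted p = 0.000225). NOTCH1 went from 25.3 ± 1.24 to 22.4 ± 1.17 CPM and did not pass (adjusted p = 0.0952). NOTCH4 was at most 1.15 CPM in any library, with a log2 fold change of 0.09 (adjusted p = 0.782). The difference between the changes of the receptors was not tested.

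The genes that process the receptor and carry its signal to the HES and HEY promoters held no gene past both limits. Of 9 cleavage genes 2 rose and 0 fell at an adjusted p under 0.05 alone. The 2 were PSEN2 (log2 fold change 0.83, edgeR adjusted p = 4.52e-06) and FURIN (0.55, adjusted p = 1.71e-05). APH1A, a gamma-secretase subunit, was at 130 ± 7.68 CPM in WT and 127 ± 3.55 in MUL1(−/−) cells. Of 6 glycosylation genes 2 rose and 1 fell, and RFNG, a fringe enzyme, was at -0.08 (adjusted p = 0.458). In the RBPJ complex 3 rose and 1 fell of 9 tested, with the acetyltransferase KAT2A at 0.12 (adjusted p = 0.241). Of the 12 corepressors of RBPJ 2 rose and 3 fell, with the deacetylase HDAC2 at -0.06 (adjusted p = 0.584). CTBP2 rose from 90.8 ± 5.35 to 178 ± 5.22 CPM (log2 fold change 0.97, edgeR adjusted p = 6.77e-08), just short of the limit of 1. Bins that another gene touches held 25.8% of its counts. NCOR1 rose by 0.67 on the log2 scale, while SPEN fell by 0.57, KDM1A by 0.53 and L3MBTL3 by 0.35.

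Among the 15 genes of endocytosis and turnover 2 rose (background 18.8%) and 6 fell (background 18.7%) at an adjusted p under 0.05. DTX1, a Deltex ligase and Notch target, was the one past both limits (log2 fold change -1.21, SE 0.25, edgeR adjusted p = 0.00146), at a low level of 0.730 ± 0.0977 CPM in WT and 0.314 ± 0.116 in MUL1(−/−) cells. On its most counted bin alone DTX1 was at -0.79 and lost the call. MIB1, the ligase that activates ligands, was at -0.28 and did not pass (adjusted p = 0.0635). Of the 9 genes in the list of TLE genes and related partners 3 rose and 3 fell. RUNX2, a runt factor that binds TLE proteins, fell by 1.06 on the log2 scale (SE 0.13, edgeR adjusted p = 1.41e-05), and by 0.96 without MUL1(−/−) replicate 3, where as with library totals it missed the limit of 1. TLE5, a short TLE protein, was at 206 CPM in WT and 251 CPM in MUL1(−/−) cells (log2 fold change 0.29, adjusted p = 0.00481), with 30.2% of its counts in bins that another gene touches.

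Of the Notch targets outside the HES and HEY families, 9 were tested, 6 fell, 0 rose and 3 did not pass at an adjusted p under 0.05 (background 18.7% lower), and their median log2 fold change was -0.49. The 3 that did not pass were NRARP at -0.06 (edgeR adjusted p = 0.692), HLX at 0.08 (adjusted p = 0.66) and SOX9 at -0.23 (adjusted p = 0.155). NRARP was at 25.6 ± 2.84 CPM in WT and 24.6 ± 2.48 in MUL1(−/−) cells. NOTCH3 and DTX1, already counted above, were the 2 past both limits. MYC, a driver of cell growth, was at 302.3, 281.6 and 182.2 CPM in WT and 138.4, 138.5 and 117.7 CPM in MUL1(−/−) cells (log2 fold change -0.96, SE 0.14, edgeR adjusted p = 6.6e-05). MYC answers to many pathways besides Notch, and so do other genes of this list.

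Downstream, the genes that HES proteins are known to repress and the proneural genes were in part too low to test in this line. Of 12 genes 8 were tested, 1 rose and 2 fell at an adjusted p under 0.05. NEUROD2, a neuronal differentiation factor, rose from 0.172 to 0.707 CPM (log2 fold change 2.04, SE 0.27, edgeR adjusted p = 3.51e-05). NEUROD1 went from 0.206 to 0.0822 CPM (log2 fold change -1.31, SE 0.47, adjusted p = 0.0409), a call that 7 of 14 alternatives kept. CDKN1B, a cell cycle inhibitor, was at -0.18 (adjusted p = 0.109).

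The ID proteins, which bind E proteins and HES1 and lack a DNA-binding domain, held 4 of the 10 calls made in the pathway lists. ID1 fell by 2.00, ID3 by 1.45 and ID2 by 1.02 on the log2 scale, whereas ID4 rose by 1.60 (edgeR adjusted p = 1.05e-05, 0.000481, 0.000122 and 3.04e-09). In MUL1(−/−) replicate 3 ID1, ID2 and ID3 were at 6.38, 53.8 and 50.7 CPM, above the other MUL1(−/−) libraries but below each WT library. Without it the falls were 2.51 for ID1, 1.34 for ID2 and 2.08 for ID3. ID1, ID3 and ID4 passed both limits in all 15 alternatives, and ID2 in 10 of 15, at -0.85 to -1.34, with the call lost without MUL1(−/−) replicate 1, without MUL1(−/−) replicate 2, with library totals, with no filter and on the most counted bin. TCF3, an E protein, was at -0.17 (adjusted p = 0.0549). Of the other HES-related repressors HELT, BHLHE40 and BHLHE41 none passed, with log2 fold changes from -0.19 to -0.09, and BHLHE40 was at 15.7 ± 2.33 CPM in WT and 14.4 ± 1.76 in MUL1(−/−) cells.

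**Figure D2:**
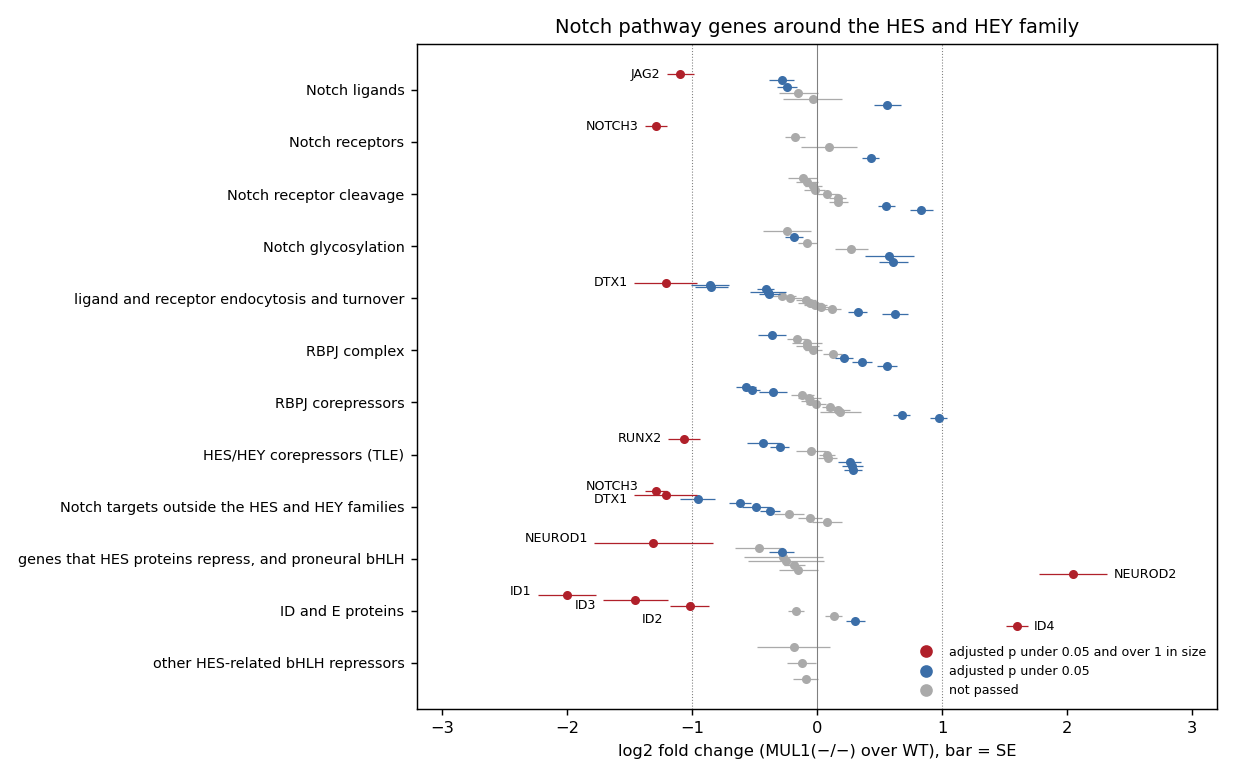
Log2 fold change (MUL1(−/−) over WT) with SE of each tested Notch pathway gene, by list; DTX1, NOTCH3, DLL1, DLL3 and NRARP can stand in 2 lists. Red points passed both limits, at an adjusted p under 0.05 and a size over 1 (dotted lines), blue points passed the adjusted p alone and grey points did not pass; most lists lie on both sides of 0.

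For each member with a mean of at least 1 CPM, the genes whose log2 CPM over the 6 libraries lay nearest to it, each centred on its mean, were found among 15766 genes outside the lists. The measure is the root mean square of the log2 difference, and with 6 libraries of 2 genotypes it reflects the genotype as well as the spread. HES4 was nearest to STK11, a kinase gene on chromosome 19 (0.045, from 232 to 114 CPM), and then to SAPCD1-AS1 and SLC2A4RG. HES2 was nearest to PAX2, a kidney transcription factor gene that also stands among the HEK293 markers (0.11, from 9.46 to 2.72 CPM), followed by ALMS1-IT1 and CRMP1. HEY1 was nearest to WNT5A, a signalling ligand (0.032, from 28.3 to 18.6 CPM), then to KRIT1 and REEP3. HES6 was nearest to ZNF438, ENSG00000270605 and IKZF2, at 0.037 to 0.041. HES1 was nearest to DNPH1, CSAD and ALKBH7, at 0.030 to 0.037. HES7, the member with the widest spread, had no gene nearer than 0.12, which was NIM1K, followed by GNAO1 and GUCA1B. The genes nearest in pattern to HEY2 included DCP1B and ENSG00000258260, and HEYL was nearest to PDE10A, NDUFA13 and TEX56P, all of which held nearly equal levels in both genotypes.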

How the data were processed

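RNA from 3 WT and 3 MUL1(−/−) HEK293 samples was sequenced, and each group was taken from the submitters' labels. Per the labels' processing notes, reads were trimmed with Trimmomatic 0.36 and aligned to GRCh38 with STAR 2.5.2b. The counting program, its strand setting and the annotation release were not given in the sources used here. Per sample, the authors deposited 1 table of whole-number counts over 597973 exon bins, without normalization. Bins were summed per gene. Bins under the 2031 identifiers that join several genes were assigned by position with GENCODE 29, and those that fit more than 1 gene, 4.37% of the counts, were left out. A read that spans several bins may be counted in each.

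Counts were fitted with edgeR's quasi-likelihood test (TMM, filterByExpr, all 6 samples, no covariate, Benjamini-Hochberg over 25125 genes), in place of the DESeq2 Wald test of the study, which is an alternative. CPM are TMM-scaled. The code was tested on simulated data of this comparison: of 200 genes changed by a log2 fold change of 2 among 25125, edgeR recovered 187 with 2 false calls. Replicates of a genotype differed by more than sampling noise (chi-square over degrees of freedom 2.95 to 10.8). Versions were Python 3.11.15, edgeR 4.0.16, limma 3.58.1 and DESeq2 1.42.0.

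The members, the lists and the tests were chosen with earlier results of these data known. The named genes are MUL1, the members, HES3, each tested ligand and receptor, in other lists each called gene and the gene of largest mean CPM, the 2 neighbours of smallest p beside each 1p member, and the 3 genes nearest in pattern, of which 1 is not reported here. Some further genes of the lists are named beside them. Protein sequences and a promoter of HEY1 were not used here. Alternatives covered tool, scaling, filter, replicate block, leaving out each replicate, bin choice, threshold and window.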

Additional observations from a re-analysis of the deposited data

How the results depend on the processing

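Across the whole table, requiring at least 1 CPM in at least 3 samples left 331 genes higher and 446 lower, and an adjusted p under 0.05 alone gave 4716 and 4706. DESeq2 called 977 higher and 859 lower. The number of members lower past both limits went from 2 to 1 with library totals in place of TMM, with no filter on low counts and with the most counted bin, each time by the loss of HES4, and was 1 to 2 with 1 replicate left out (1 without WT replicate 1, MUL1(−/−) replicate 1 or MUL1(−/−) replicate 2). For the pathway lists, the 1 CPM filter left 1 gene higher, library totals left 5 lower, an adjusted p alone gave 19 higher and 26 lower, and leaving out 1 replicate gave 2 to 3 higher and 5 to 8 lower, with 5 without MUL1(−/−) replicate 3. Leaving out 1 replicate gave 1008 to 1277 higher and 902 to 1075 lower genes over the table.

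Less the neighbours' median, the log2 fold change was -0.64 for HES1, -1.25 for HES2, -0.35 for HES4 and 0.0823 for HEY2. With 5 genes on each side the median was -0.83 around HES2, 0.0615 around HES6 and -0.10 around HEYL, and with 20 on each side -0.0090 around HES6, 0.0064 around HEY1 and -0.0247 around HEY2. On the most counted bin HES7 ranked 4 and HEY1 5 in WT. Library totals moved HEYL to 0.10 and the median of all genes by 0.07. Without MUL1(−/−) replicate 3, chosen after seeing the data, HEY2 less its neighbours was 0.19 and HES7 -0.37.

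The correlations of same-numbered libraries were -0.08, 0.16 and 0.10, and those of differently numbered libraries ran from -0.18 to 0.10. With 3 libraries per genotype these values cannot settle whether the replicate numbers pair the samples, so the fit was also made with a replicate block. With the replicate block 1015 genes were higher and 940 lower, 2 members and 7 pathway genes were lower, and HES4 was at -1.01 and HES2 at -1.99. The causes of these changes were not tested. HES5 could not be fitted at this depth.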
